A study of Pavo cristatus and Gallus gallus and Meleagris gallopavo with 54 samples.

Results

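The levels of 10 genes that encode enzymes of glycolysis (HK1, HK2, GPI, PFKP, TPI1, GAPDH, PGK1, ENO1, PKM and LDHA) were followed in embryonic fibroblasts of zebra finch, duck, quail and chicken. They were chosen by gene symbol, 10 of the 13997 symbols that carried a peak in the cap analysis of gene expression (CAGE) tables of these 4 species, and each gene was measured at its peak of highest mean level. The chicken table held a peak for all 10 genes (of 8168 genes with a peak), the zebra finch table for 8 (of 8769, without HK2 and LDHA), the duck table for 7 (of 7706, without HK1, PFKP and LDHA) and the quail table for 7 (of 8331, without HK2, PFKP and LDHA). The missing ones were not analysed here, and 6 genes (GPI, TPI1, GAPDH, PGK1, ENO1 and PKM) could be set side by side in all 4 species. The peak tables of the other 3 species of the series were not used here.

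The cells came from the trunk of embryos at stage HH36 or its equivalent in the other species, reached after about 10 days of incubation in chicken, with head, limbs, skin and inner organs removed. They were collected at passage 5, each culture from 1 embryo. The study calls the cells purified and gives homogeneity as the aim of the passages. Its methods describe no cell sorting, transgene or drug. Duck, quail and chicken gave 3 embryos each, and cells of every embryo were grown both in DMEM high glucose and in DMEM/F12, each with 10% FBS, so that the media form pairs. Both media contain glucose, DMEM high glucose the more, and they differ in amino acids, vitamins and trace components as well. Duck had 1 female and 2 male embryos, quail and chicken 2 female and 1 male embryo, and zebra finch 1 male and 3 female cultures, all in DMEM high glucose. CAGE reads the capped 5′ ends of RNA and gave 22 libraries in these species, in TPM, tags scaled to the depth of a library. RNA-seq of part of the same cultures gave 2 libraries a species, 1 a sex, in FPKM, fragments scaled to transcript length and depth, in DMEM/F12 in quail and in DMEM high glucose in the other species.

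Glycolysis turns glucose into pyruvate in the cytosol, and lactate dehydrogenase can reduce the pyruvate to lactate. Hexokinase and phosphofructokinase catalyse its regulated early steps. Most of the other enzymes work near equilibrium, and pyruvate kinase closes the path with another regulated step. Most of these enzymes are made in all cells, the genes of several are targets of the hypoxia-inducible factor HIF-1 in mammals, and proliferating cells in culture are known for a high rate of glycolysis.

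CAGE depth ran between 7006061 and 12055369 tags a library, so that 1 tag was worth 0.0830 to 0.143 TPM. The lowest count behind any value of the 10 genes was 189 tags (HK2 in 1 chicken culture), a counting error of 7.27%. RNA-seq totals ran between 21977052 and 133819725 counts. Fibroblast markers summed to at least 12945 TPM in every library, while markers of epithelium (except EPCAM in duck) and of red blood cells had no peak in any of the 4 species. Skeletal muscle markers had peaks in zebra finch only (5 of 8). They summed to 158 TPM in culture 4 and to 0.0922 to 8.34 TPM in the other cultures. In quail, 7 of 9 macrophage markers (CSF1R, C1QA, C1QB, CTSS, SPI1, GPNMB and LAPTM5) had a peak and summed to more in DMEM high glucose, as given with the quail results. Macrophage markers also had peaks in zebra finch (GPNMB and CD74, summed 15.2 to 120 TPM) and duck (CTSS), and none in chicken. Of the endothelium markers, ERG had a peak in zebra finch, quail and chicken and EGFL7 in quail, summed to at most 123 TPM. Summed cartilage markers were 13.3 to 105 TPM in zebra finch, 7.14 to 53.0 TPM in duck and 50.4 to 105 TPM in chicken. In bulk cultures fewer cells of a type and less RNA per cell cannot be told apart. Zebra finch cultures 1 and 2 carry opposite sexes in the CAGE and the RNA-seq labels, so values by sex in the 2 assays cannot be safely matched in this species.

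**Figure D1:**
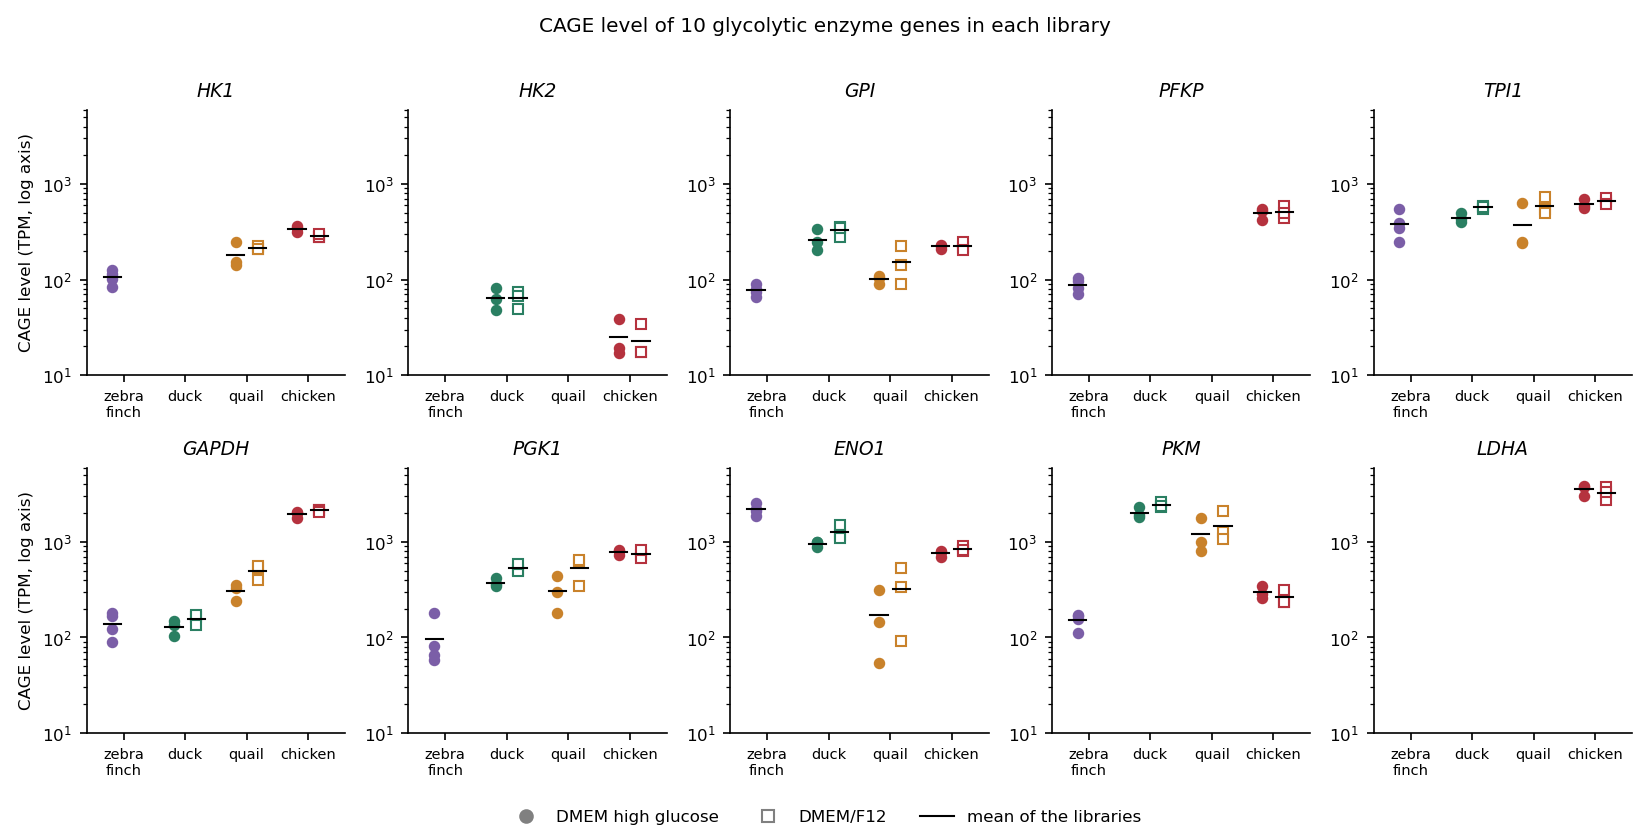
CAGE level of each gene (TPM, log axis) in each library, filled circles for DMEM high glucose and open squares for DMEM/F12, with the mean of each group as a line. An empty column stands for a gene that was not analysed in that species, and zebra finch has DMEM high glucose only. GAPDH in chicken (1777 to 2169.8 TPM in both media) sits above all libraries of the other 3 species (89.7 to 554 TPM).

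Per transcript length, the measured genes of the lower part of the pathway were the more strongly expressed in all 4 species. In duck the early steps rest on HK2 and GPI, as HK1 and PFKP had no RNA-seq value there. By RNA-seq, GAPDH, which makes 1,3-bisphosphoglycerate, had the highest FPKM of the measured genes in zebra finch (1717 and 2712), duck (945 and 781) and quail (3283 and 2111). In chicken, LDHA, the lactate dehydrogenase subunit that predominates in glycolytic tissues, was higher still (4055 and 4543 FPKM, against 3538 and 3194 FPKM of GAPDH), and ranked 4 and 5 among the 24106 genes of the 2 libraries. ENO1, the ubiquitous enolase, PKM, the pyruvate kinase of most tissues, and PGK1, which forms the first ATP of the path, lay between 233 and 1358 FPKM in all 8 libraries. TPI1, which interconverts the 2 triose phosphates, reached 209.9 to 512 FPKM and GPI, the isomerase after hexokinase, 82.9 to 281 FPKM. The genes of the regulated early steps were lower, with PFKP, the platelet-type phosphofructokinase, at 66.2 to 173 FPKM in 6 libraries, and HK1, the ubiquitous hexokinase, at 53.9 to 162 FPKM in 6 libraries. HK2, the inducible hexokinase, had 48.0 and 38.9 FPKM in duck and 33.3 and 26.5 FPKM in chicken. PFKP had RNA-seq values in quail although it had no value in the quail CAGE table.

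The position of transcription start was single for most of these genes. Of the 10 genes, 8 had 1 CAGE peak in each species measured, 129 to 399 bp wide, and all of these peaks lay within 1 kb of the annotated gene start except that of chicken PGK1, which lay in an annotated 5′ UTR 12519 bp from the start to which it was assigned (galGal6, chr4:12938343-12938572, plus strand). PKM had a second, weak peak in quail (1.09% of its TPM). GAPDH had 4 peaks in zebra finch, quail and chicken and 3 in duck. Its main peak was at chr1:26436195-26436550 in zebra finch (bTaeGut2.pat.W.v2, plus strand), chr1:82456686-82456790 in duck (ZJU1.0, minus strand), chr1:69305296-69305458 in quail (Coturnix_japonica_2.1, plus strand) and chr1:77619357-77619496 in chicken (galGal6, plus strand). In duck it lay 245 bp inside the annotated start, and in the other 3 species at the start. The other GAPDH peaks lay 1299 to 2874 bp inside the gene in the files' annotation and held between 6.10 and 35.1 TPM on average. The main peak held 78.0% of the gene's TPM in zebra finch, 86.8% in duck, 88.8% in quail and 97.7% in chicken.

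Between species the CAGE levels of these genes differed widely, and in a different order for each gene. The comparison used the 13 libraries in DMEM high glucose and 4264 genes with a peak in all 4 tables (limma on log2(TPM + 1), Benjamini-Hochberg adjustment over these genes, called at adjusted p under 0.05). Over the 4 species, 5 of the 6 genes differed (F test, adjusted p between 2.03e-07 and 3.63e-05), all but TPI1 (adjusted p = 0.121), where 83.6% of all genes were called. Most genes differed between species in these data, which rest on a different genome and annotation for each species. In single contrasts, 4 of 6 were called for zebra finch minus duck (57.8% of all genes), 4 for zebra finch minus quail (55.2%), 5 for zebra finch minus chicken (54.4%), 4 for duck minus quail (51%), 3 for duck minus chicken (49.2%) and 5 for quail minus chicken (34.6%). For duck minus chicken 2 of the 3 were lower in duck (27.7% of all genes), for quail minus chicken 4 of the 5 were lower in quail (14.9%), and for zebra finch minus duck 1 of the 4 was higher in zebra finch (28.5%). The contrasts share libraries. Where all libraries of a species are said below to lie above or below those of another, the share of such genes was not counted. The p-values measure the spread between embryos of 1 source per species. Each gene had 1 spread pooled over the 4 species, so a species with variable cultures also enters the SE of pairs without it.

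GAPDH was highest in chicken. Its CAGE level was 182, 89.7, 167 and 122 TPM in zebra finch, 135, 148 and 104 TPM in duck, 243, 329 and 358 TPM in quail and 2020.2, 2049.6 and 1777 TPM in chicken. No library of the other 3 species came near those of chicken. The difference on the log2 scale was -3.84 (SE 0.24, adjusted p = 1.67e-07) for zebra finch minus chicken, -3.92 (SE 0.26, adjusted p = 3.03e-07) for duck minus chicken and -2.66 (SE 0.26, adjusted p = 1.27e-05) for quail minus chicken. Fitted levels were 14.3-fold, 15.1-fold and 6.34-fold lower than in chicken. Zebra finch and duck also lay below quail (adjusted p = 0.00127 and 0.00144) and were not told apart from each other (0.08, 95% interval -0.44 to 0.60). With all peaks of the gene summed, the differences to chicken were -3.51, -3.74 and -2.47 for zebra finch, duck and quail.

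ENO1 had the opposite extreme, with its highest level in zebra finch. It had 2223, 1852, 2129 and 2586 TPM in zebra finch, 990.1, 894 and 992 TPM in duck, 146, 316 and 54.5 TPM in quail and 788, 804 and 693 TPM in chicken. The lowest zebra finch culture exceeded the highest culture of every other species, and the quail cultures were the lowest and the most variable. Zebra finch minus quail came to 3.99 (SE 0.41, adjusted p = 7.52e-06), zebra finch minus chicken to 1.52 (SE 0.41, adjusted p = 0.00754), duck minus quail to 2.80 (SE 0.44, adjusted p = 0.000205) and quail minus chicken to -2.47 (SE 0.44, adjusted p = 0.00116). Zebra finch minus duck was 1.19 (SE 0.41, adjusted p = 0.0252), a call lost without any 1 of duck cultures 1, 2 and 3 or zebra finch culture 4 (adjusted p = 0.0555 to 0.0688), and duck minus chicken was not called (0.33, 95% interval -0.62 to 1.28). Both contrasts used the pooled spread, which includes the variable quail cultures.

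PKM was highest in duck and quail. It had 168, 157, 113 and 171 TPM in zebra finch, 1918, 1814 and 2306 TPM in duck, 1009.9, 1792 and 807 TPM in quail and 349.9, 259 and 282 TPM in chicken. The duck and quail cultures all lay above those of zebra finch and chicken. Zebra finch minus duck was -3.73 (SE 0.25, adjusted p = 2.22e-07), duck minus chicken 2.76 (SE 0.27, adjusted p = 6.52e-06), quail minus chicken 1.94 (SE 0.27, adjusted p = 0.000220) and zebra finch minus chicken -0.97 (SE 0.25, adjusted p = 0.00633). Duck minus quail was 0.82 (SE 0.27, adjusted p = 0.0231), and this call was lost without quail culture 1 or 3 or duck culture 3 (adjusted p = 0.0725, 0.1002 and 0.0784).

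PGK1 followed the order zebra finch below duck and quail below chicken. It had 179, 66.0, 58.1 and 82.1 TPM in zebra finch, 342, 363 and 419 TPM in duck, 179.6, 435 and 299.9 TPM in quail and 801, 738 and 821 TPM in chicken. The zebra finch culture labelled male was above the 3 female cultures. Zebra finch minus chicken was -3.16 (SE 0.35, adjusted p = 1.55e-05), quail minus chicken -1.45 (SE 0.38, adjusted p = 0.0106) and duck minus chicken -1.07 (SE 0.38, adjusted p = 0.0328), while duck and quail were not told apart (0.38, 95% interval -0.44 to 1.20). The call of duck minus chicken was lost without any 1 of the 6 libraries compared (adjusted p = 0.0531 to 0.0852), and in DMEM/F12 neither duck minus chicken nor quail minus chicken was called (adjusted p = 0.0744 and 0.0701).

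By CAGE, GPI was higher in duck and chicken than in zebra finch and quail, and TPI1 varied least. GPI had 90.0, 80.4, 66.4 and 75.0 TPM in zebra finch, 248, 203 and 337 TPM in duck, 110.3, 104 and 90.2 TPM in quail and 229.7, 210.4 and 227 TPM in chicken, and the groups of the higher and the lower species did not overlap. The share of all genes with such separate species groups was not counted. Zebra finch minus duck was -1.72 (SE 0.18, adjusted p = 7.08e-06) and quail minus chicken -1.13 (SE 0.19, adjusted p = 0.000857), while duck and chicken were not told apart, nor were zebra finch and quail (adjusted p = 0.388 and 0.0891). In DMEM/F12 quail minus chicken was no longer called for GPI (adjusted p = 0.0759). TPI1 had 389, 343, 250.1 and 546 TPM in zebra finch, 398, 429.7 and 493.1 TPM in duck, 239, 628 and 249 TPM in quail and 695, 556 and 587 TPM in chicken. The highest and lowest species means of TPI1 differed 1.65-fold and no pair of species was called. Without quail culture 2 (628 TPM) TPI1 was called for quail minus chicken, duck minus quail and zebra finch minus chicken (adjusted p = 0.00409, 0.0230 and 0.0170), and without zebra finch culture 4 for zebra finch minus chicken (adjusted p = 0.0334).

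Of the genes measured in part of the species, HK1 had 102, 114, 83.3 and 125 TPM in zebra finch, 153, 246 and 141 TPM in quail and 311, 362 and 346 TPM in chicken. The 3 groups did not overlap, and the share of all genes for which this holds was not counted. Each pair was fitted over the genes of its 2 tables, and HK1 was -1.69 (SE 0.17, adjusted p = 0.000175) for zebra finch minus chicken (52.7% of 5771 genes called), -0.95 (SE 0.23, adjusted p = 0.0181) for quail minus chicken (36.5% of 5949) and -0.73 (SE 0.24, adjusted p = 0.0398) for zebra finch minus quail (45.1% of 5987). The last pair was lost under another library scaling (adjusted p = 0.0549) and without zebra finch cultures 1, 2 or 3 or quail cultures 1 or 2 (0.0582 to 0.112), and quail minus chicken without quail culture 1 or any chicken culture (0.0517 to 0.0622). PFKP had 69.9, 96.3, 82.1 and 104 TPM in zebra finch and 554, 424 and 519 TPM in chicken, a difference of -2.50 (SE 0.18, adjusted p = 4.72e-05). HK2 had 82.2, 47.6 and 63.3 TPM in duck and 38.6, 17.005 and 19.4 TPM in chicken, a difference of 1.39 (SE 0.32, adjusted p = 0.00538), where 56.6% of 5315 genes were called. LDHA was measured in chicken only, at 3745, 3028 and 3857 TPM.

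RNA-seq levels of GAPDH, PKM, ENO1 and PGK1 spread less between species than their CAGE levels. Between the highest and the lowest species mean, CAGE levels of GAPDH differed 15.1-fold and FPKM 3.90-fold, of PKM 13.2-fold and 1.86-fold, of ENO1 12.8-fold and 2.05-fold, and of PGK1 8.17-fold and 2.45-fold. GPI (3.37-fold and 2.90-fold) and TPI1 (1.65-fold and 2.03-fold) spread about equally by both. The order of these means changed too. GPI had its highest mean in duck by CAGE (262 TPM) and its lowest there by RNA-seq (93.6 FPKM). By CAGE, though, duck and chicken were not told apart for GPI. In the cultures with RNA-seq, GPI had 248 and 203 TPM in duck and 229.7 and 227 TPM in chicken. Its duck libraries (104 and 82.9 FPKM) were not set apart from those of zebra finch (104 and 116 FPKM). TPI1, with no pair of species called by CAGE, had its lowest CAGE mean in quail (372 TPM, DMEM high glucose). Its highest RNA-seq mean was in quail too (478 FPKM, DMEM/F12). In the cultures with RNA-seq, TPI1 had 548 and 734 TPM in quail (DMEM/F12) and 695 and 587 TPM in chicken. Zebra finch (389 and 343 TPM) and duck (398 and 429.7 TPM) were lower there, so quail was not the lowest in these cultures. ENO1 was highest in zebra finch by CAGE but lowest there by RNA-seq, with 523 and 583 FPKM in zebra finch, 773 and 645 in duck, 1176 and 1089 in quail and 1172 and 999 in chicken. PKM was highest in duck by CAGE, where its RNA-seq mean was the lowest, though not set apart from zebra finch. By RNA-seq PKM had 658 and 593 FPKM in duck, within the 592 and 743 FPKM of zebra finch. Quail had 1358 and 971 FPKM of PKM and chicken 817 and 841 FPKM. GAPDH kept chicken as the highest species in both assays. Its mean was lowest in duck in both, but by CAGE duck and zebra finch were not told apart. By RNA-seq they averaged 863 FPKM in duck and 2214 FPKM in zebra finch. These are 2 libraries a species with no test, and quail was in DMEM/F12 for RNA-seq. The CAGE means are of all libraries in DMEM high glucose, so the 2 assays do not cover the same cultures. For ENO1 the lowest CAGE mean was that of quail, 172 TPM. In the cultures with RNA-seq, ENO1 had 537 and 341 TPM in quail (DMEM/F12) and 2223 and 1852 TPM in zebra finch, a smaller spread.

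**Figure D2:**
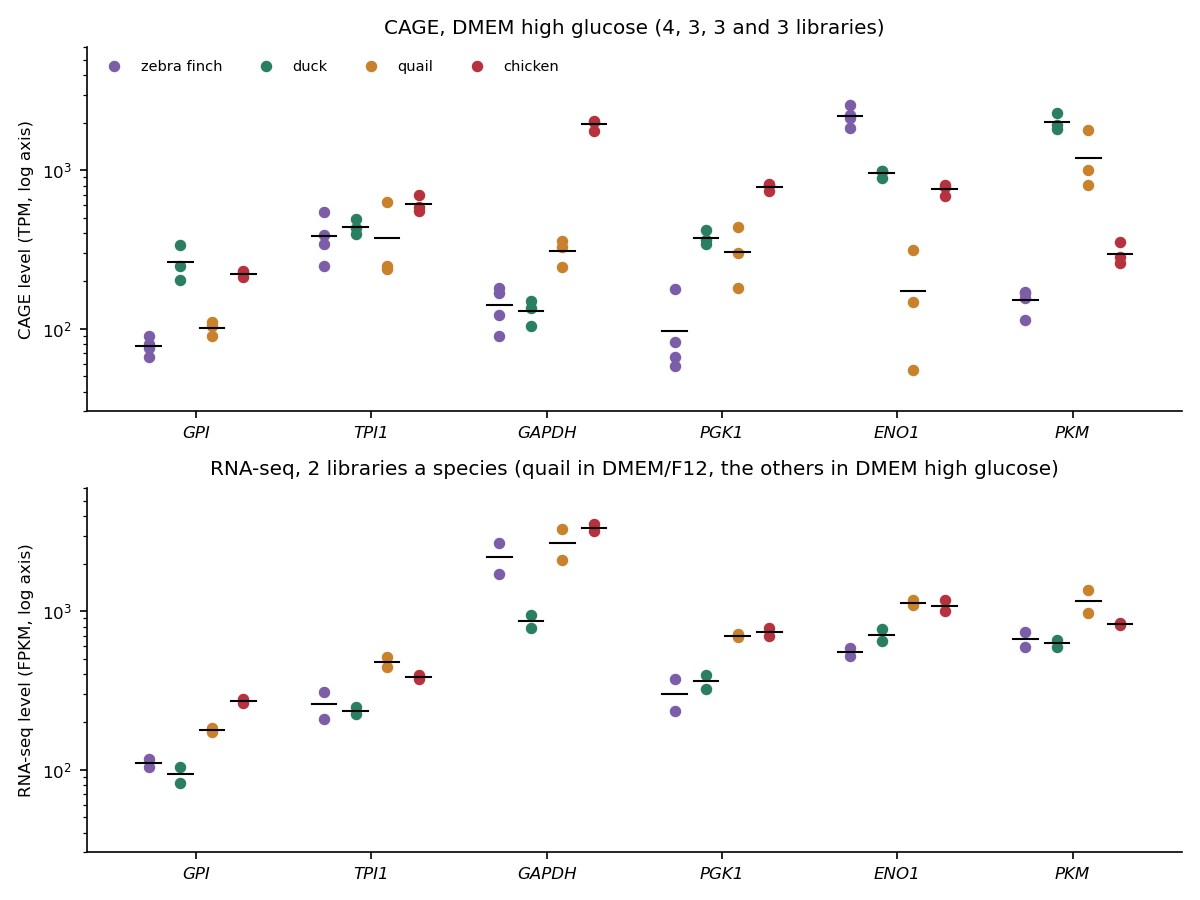
Levels of the 6 genes measured in all 4 species, by CAGE in DMEM high glucose (TPM, log axis, above) and by RNA-seq (FPKM, log axis, below), each point a library and each line the mean of a species. ENO1 is highest in zebra finch by CAGE (mean 2198 TPM) and lowest there by RNA-seq (mean 553 FPKM), and the species means of PKM span 152 to 2013 TPM by CAGE and 626 to 1165 FPKM by RNA-seq.

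The ratio of CAGE TPM to RNA-seq FPKM in the same culture showed which genes had few 5′ tags for their RNA-seq level. CAGE tags are not divided by length, so the ratio also follows transcript length. Over 6385 to 7280 genes with at least 10 TPM and 1 FPKM, its median was 2.31 to 2.92 in the 8 cultures. GAPDH lay between 0.0331 and 0.571, below all but 0.0143% to 2.21% of genes in every culture, in chicken as in the others. In zebra finch its ratio was 0.106 and 0.0331, and with the 2 cultures matched by their labelled sex instead of their number 0.0669 and 0.0523. PKM was low in zebra finch (0.283 and 0.211) and chicken (0.428 and 0.335), but near the median in duck (2.91 and 3.06), the species of its highest CAGE level. ENO1 was low in quail (0.457 and 0.313) and above the median in zebra finch (4.25 and 3.18). PGK1 ranged between 0.178 and 1.18 (in zebra finch matched by labelled sex 0.482 and 0.283), LDHA was 0.924 and 0.849 in chicken, HK1 between 1.69 and 2.32, and TPI1 between 1.11 and 1.92. Of the measured genes only PFKP in chicken, GPI in 1 duck culture, PKM in duck and ENO1 in zebra finch exceeded the culture's median in any culture.

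**Figure D3:**
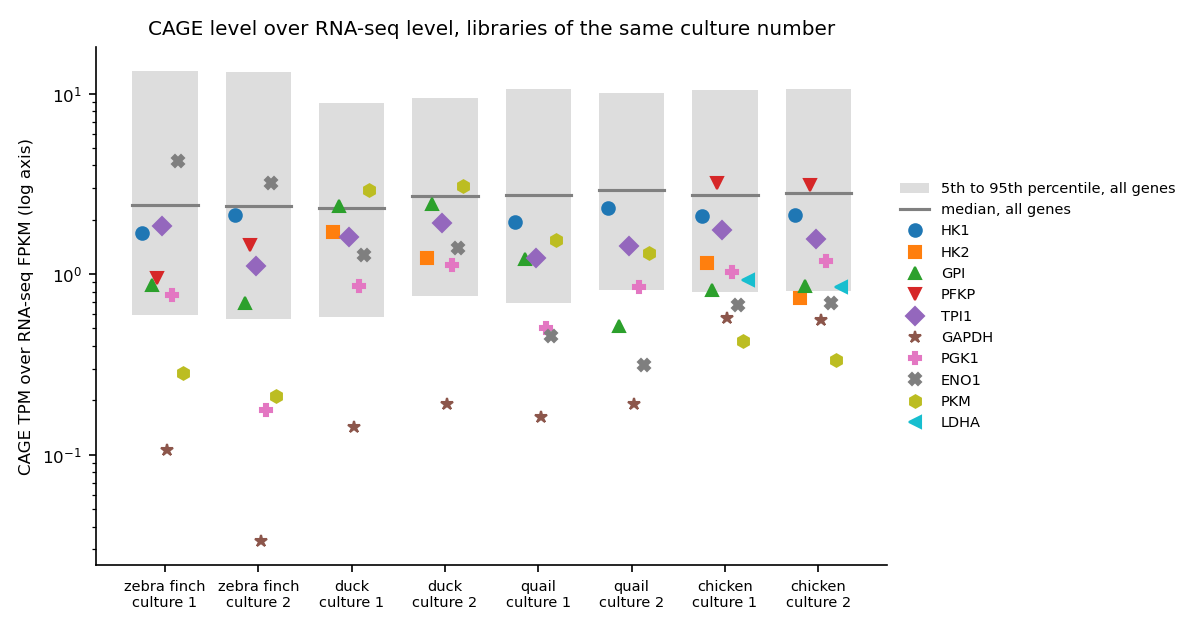
CAGE TPM over RNA-seq FPKM (log axis) for each gene in each culture with both assays, 2 a species, numbered as the RNA-seq libraries and matched by library number. Grey bands span the 5th to 95th percentile of all genes and grey lines their median. GAPDH lies below the band in all 8 cultures (0.0331 to 0.571).

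The response to the medium was asked within embryos, DMEM high glucose minus DMEM/F12. In duck and quail the fitted log2 difference of every measured gene of the 10 was below 0, as were those of 64.2% and 44.0% of all genes there. In chicken 5 were below and 5 above 0 (41.6% of all genes below), and within a single species none passed the test. In duck, 0 of 7 were called (0.026% of 7706 genes), although 6 of 7 had an unadjusted p under 0.05 (732 of all genes), and 6 of 7 were lower in DMEM high glucose in all 3 embryos, which held for 21.9% of genes. In quail, 0 of 7 were called by limma (0.696% of 8331 genes) and 0 by edgeR on recovered tags, 4 had an unadjusted p under 0.05 (1316 of all genes), and 4 were lower in all 3 embryos (14.6% of genes). In chicken, 0 of 10 were called (0% of 8168 genes), 1 had an unadjusted p under 0.05 (974 of all genes), and 2 were lower in all 3 embryos (12%). The median difference of the genes measured was -0.34 in duck, -0.68 in quail and 0.03 in chicken on the log2 scale, against -0.06, 0.05 and 0.03 over all genes. Of 8 proliferation markers (MKI67, TOP2A, CDK1, CCNB2, AURKA, BUB1, PCNA and MCM2), 6 of 7 measured were below 0 in duck. In quail 8 of 8 and in chicken 0 of 8 were below 0. Their medians were -0.17, -0.15 and 0.12, and none was called by limma. The part of proliferation in the glycolytic genes was not tested.

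In duck the groups in the 2 media did not overlap for 4 of 7 genes, all with DMEM high glucose below, which held for 5.23% of all genes. PGK1 had 342, 363 and 419 TPM in DMEM high glucose, against 511, 495 and 582 TPM in DMEM/F12, a difference of -0.50 (SE 0.08, adjusted p = 0.168). All 3 cultures in DMEM high glucose lay below all 3 in DMEM/F12. ENO1 had 990.1, 894 and 992 TPM in DMEM high glucose and 1502, 1172 and 1101 TPM in DMEM/F12, a difference of -0.38 (SE 0.11, adjusted p = 0.405). TPI1 had 398, 429.7 and 493.1 TPM in DMEM high glucose and 583, 553 and 578 TPM in DMEM/F12, a difference of -0.38 (SE 0.09, adjusted p = 0.348). These groups were separate too, as were those of PKM, with 1918, 1814 and 2306 TPM in DMEM high glucose and 2619, 2312 and 2399 TPM in DMEM/F12 (-0.29, SE 0.10, adjusted p = 0.511). The hexokinase gene HK2 showed no such shift, with 82.2, 47.6 and 63.3 TPM in DMEM high glucose and 74.8, 49.6 and 67.3 TPM in DMEM/F12 (-0.00, 95% interval -0.25 to 0.25). Defining macrophage markers other than CTSS (24.2 to 33.5 TPM in all 6 duck libraries) had no peak in duck.

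In quail the fitted differences were larger and less even between embryos. ENO1 had 146, 316 and 54.5 TPM in DMEM high glucose in embryos 1, 2 and 3, against 537, 341 and 91.7 TPM in DMEM/F12, a difference of -0.91 (SE 0.33, adjusted p = 0.267). PGK1 had 179.6, 435 and 299.9 TPM in DMEM high glucose and 346, 609 and 648 TPM in DMEM/F12 (-0.84, SE 0.19, adjusted p = 0.115), and TPI1 had 239, 628 and 249 TPM in DMEM high glucose and 548, 734 and 497 TPM in DMEM/F12 (-0.80, SE 0.23, adjusted p = 0.181). Embryo 2 differed less between the media than embryos 1 and 3 for these 3 genes. GAPDH had 243, 329 and 358 TPM in DMEM high glucose and 529, 401 and 554 TPM in DMEM/F12 (-0.68, SE 0.21, adjusted p = 0.204), the only 1 of 7 genes whose groups did not overlap, with DMEM high glucose below (5.5% of all genes). Without embryo 2, TPI1, PGK1 and ENO1 were called (adjusted p = 0.0362, 0.0457 and 0.0423), and so were 375 of all genes (4.5%), 225 higher and 150 lower, against 58 with all embryos. PKM and GPI were higher in DMEM high glucose in embryo 2 (PKM 1792 against 1273 TPM in DMEM/F12, GPI 104 against 89.7 TPM in DMEM/F12) and lower in embryos 1 and 3. The 7 macrophage markers with a peak summed to 222, 349 and 1119 TPM in DMEM high glucose in embryos 1, 2 and 3, against 29.2, 15.9 and 20.9 TPM in DMEM/F12. CTSS and GPNMB were called higher (adjusted p = 0.0153 for both), and CD74 and TYROBP had no peak. Summed cartilage markers (SOX9, COL2A1 and ACAN) were 58.6, 248 and 7.80 TPM in DMEM high glucose and 530.0, 304 and 300.2 TPM in DMEM/F12. The part of these in the glycolytic genes was not tested.

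In chicken the fitted differences stayed between -0.14 and 0.25 on the log2 scale. LDHA had 3745, 3028 and 3857 TPM in DMEM high glucose in embryos 5, 6 and 7 and 3765, 2741 and 3366 TPM in DMEM/F12, a difference of 0.11 (SE 0.11, adjusted p = 0.740). GAPDH had 2020.2, 2049.6 and 1777 TPM in DMEM high glucose, below all 3 cultures in DMEM/F12 (2162, 2169.8 and 2072 TPM), a difference of -0.13 (SE 0.10, adjusted p = 0.655). HK1, in contrast, had 311, 362 and 346 TPM in DMEM high glucose, above all 3 in DMEM/F12 (278, 276 and 302 TPM), a difference of 0.25 (SE 0.10, adjusted p = 0.387). Groups that did not overlap were found for 6.53% of chicken genes with DMEM high glucose above and 2.89% below. The other 7 genes lay between -0.14 (ENO1) and 0.18 (PKM).

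Averaged over the 3 species in 1 fit of 9 embryo pairs, 3 of 6 genes fell in DMEM high glucose. They were PGK1, at -0.42 (SE 0.07, adjusted p = 0.0111), GAPDH, at -0.37 (SE 0.08, adjusted p = 0.0340), and TPI1, at -0.44 (SE 0.10, adjusted p = 0.0358). On the linear scale these are levels 1.34-fold, 1.29-fold and 1.35-fold lower. Of 4774 genes, 4.71% were called in either direction and 1.21% were called lower. ENO1 was -0.48 (SE 0.14, adjusted p = 0.0938), GPI -0.28 (SE 0.11, adjusted p = 0.202) and PKM -0.14 (SE 0.14, adjusted p = 0.622). The median over the 6 genes was -0.40, against 0.01 over all genes. GAPDH and ENO1 were lower in DMEM high glucose in 9 of 9 embryos, which held for 0.943% of all genes. TPI1 was lower in 8, PGK1 in 7, and GPI and PKM in 6 of 9. The shares of all genes for these lower counts are not given here, so nothing is read from them.

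These calls were lost without quail and without the pairing of embryos. With chicken and duck only, an alternative added after seeing the macrophage markers of quail, 0 of 6 genes were called (0.356% of all genes), 4 had an unadjusted p under 0.05 (567 of all genes), and the differences were -0.21 for PGK1, -0.21 for GAPDH and -0.25 for TPI1 (adjusted p = 0.193, 0.196 and 0.224). Without the embryo block 0 of 6 were called (adjusted p = 0.270 for PGK1, 0.136 for GAPDH and 0.270 for TPI1). PGK1 passed with each embryo left out in turn (adjusted p = 0.00137 to 0.0483). GAPDH was lost without any 1 of the chicken or duck embryos (up to 0.109) and TPI1 without any embryo but quail embryo 2 (up to 0.112). Without quail embryo 2, 5 of 6 were called, all but PKM, and so were 413 of all genes (8.65%), 248 higher and 165 lower, against 225 with all embryos. Fibroblast markers were mostly lower in the same fit, with 6 of 8 measured below 0, a median of -0.29 and 1 that fell, COL5A1, a collagen V chain (-0.45, SE 0.09, adjusted p = 0.0239). COL5A1 averaged 144 TPM in DMEM high glucose and 134 TPM in DMEM/F12 in duck, 332 TPM in DMEM high glucose and 783 TPM in DMEM/F12 in quail, and 551 TPM in DMEM high glucose and 665 TPM in DMEM/F12 in chicken. The summed markers ran between 68562 and 81139.5 TPM in DMEM high glucose and 71571 and 89398 TPM in DMEM/F12 in duck, 26992 and 39208 TPM in DMEM high glucose and 31911 and 55768 TPM in DMEM/F12 in quail, and 29773 and 35157 TPM in DMEM high glucose and 31898.5 and 36315 TPM in DMEM/F12 in chicken, so that the groups overlapped. With chicken and duck only 0 of the 8 were called and their median was -0.09. Their part in the result was not tested.

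**Figure D4:**
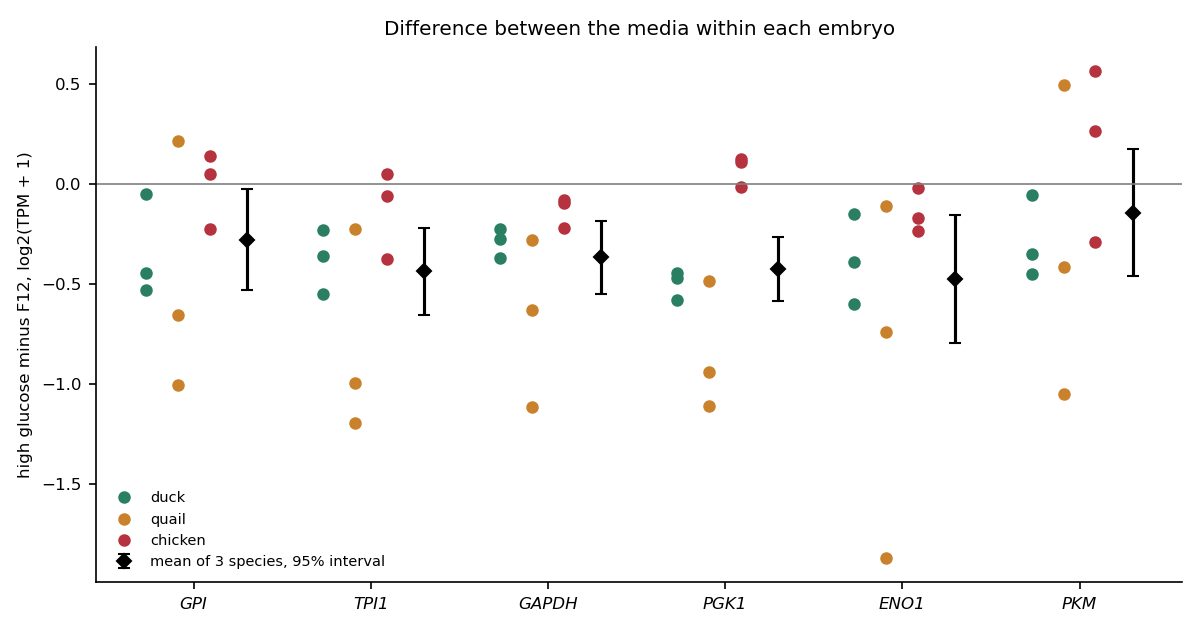
Difference between the media (DMEM high glucose minus DMEM/F12, log2(TPM + 1)) in each embryo of duck, quail and chicken for the 6 shared genes, with the mean of the 3 species and its 95% interval as a black diamond. All 9 points lie below 0 for GAPDH and ENO1, and the quail points reach furthest down (-1.87 for ENO1).

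Whether the species differ in this response was tested by the interaction, and 0 of 6 genes were called in any of 3 contrasts, which share libraries (limma). The spread of a gene was pooled over the 3 species, so its SE is the same in all 3 contrasts. The less even quail embryos thus also enter duck minus chicken. For duck minus chicken 0% of 4774 genes were called and 1 of the 6 genes had an unadjusted p under 0.05 (218 of all genes), for quail minus chicken 0.126% and 3 of 6 (517 of all genes), and for duck minus quail 0.649% and 0 of 6 (684 of all genes). The strongest was PGK1, with -0.92 (SE 0.18, adjusted p = 0.0669) for quail minus chicken and -0.57 (SE 0.18, adjusted p = 0.987) for duck minus chicken. For PGK1, embryos in duck and quail all had less in DMEM high glucose, and 2 of 3 chicken embryos had more. The median interaction of the 6 genes was -0.29 for duck minus chicken, against -0.11 over all genes, and -0.61 for quail minus chicken, against 0.00 over all genes. Without quail embryo 2, PGK1 and TPI1 were called for quail minus chicken (adjusted p = 0.00504 and 0.0208), and so were 162 of all genes (3.39%), 83 higher and 79 lower, against 6 with all embryos.

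The rest of the pathway is given beside these genes. Of 16 other glycolytic genes, 6 were measured in the 3 species, all 6 had a mean log2 difference below 0 (median -0.29), and 1 fell, PGAM1, the phosphoglycerate mutase between PGK1 and enolase (-0.38, SE 0.08, adjusted p = 0.0275). PGAM1 had 789.6 TPM in DMEM high glucose and 1179.6 TPM in DMEM/F12 in duck, 1044 TPM in DMEM high glucose and 1515 TPM in DMEM/F12 in quail, and 1514 TPM in DMEM high glucose and 1512 TPM in DMEM/F12 in chicken, as means of 3 cultures. Of 9 transport genes, 4 were measured, with a median of -0.45, and 1 fell, SLC16A1, the monocarboxylate transporter that carries lactate and pyruvate (-0.64, SE 0.12, adjusted p = 0.0146). It averaged 18.4 TPM in DMEM high glucose and 25.5 TPM in DMEM/F12 in duck, 86.0 TPM in DMEM high glucose and 217 TPM in DMEM/F12 in quail, and 126 TPM in DMEM high glucose and 129 TPM in DMEM/F12 in chicken. SLC2A1, the basal glucose transporter, was -0.12 (adjusted p = 0.731). With chicken and duck only, neither PGAM1 (-0.28, adjusted p = 0.225) nor SLC16A1 (-0.25, adjusted p = 0.217) was called.

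Of the lists next to glycolysis, the pentose phosphate list had 1 of 6 measured genes rise, PGD, the 6-phosphogluconate dehydrogenase of its oxidative branch (0.37, SE 0.09, adjusted p = 0.0426), with a list median of 0.00. PGD was not called with chicken and duck only (0.23, adjusted p = 0.227). Of the HIF list, 1 of 7 fell, P4HA1, a collagen prolyl hydroxylase subunit (-0.42, SE 0.10, adjusted p = 0.0425), with a median of 0.02, and it was not called with chicken and duck only (-0.18, adjusted p = 0.444). EGLN3, a HIF prolyl hydroxylase, fell in quail, with 14.3 ± 2.63 TPM in DMEM high glucose and 40.6 ± 4.48 TPM in DMEM/F12 (-1.45, SE 0.19, adjusted p = 0.0485), and in chicken it averaged 15.7 TPM in DMEM high glucose and 12.8 TPM in DMEM/F12. No gene was called among 8 for pyruvate use (median 0.11), 3 for gluconeogenesis and glycogen (0.07), 1 for glucose sensing (0.06) and 6 for the hexosamine path (-0.01). Their most abundant genes were MPC2, of the mitochondrial pyruvate carrier (0.17, adjusted p = 0.25), UGP2, which makes UDP-glucose (0.07, adjusted p = 0.863), TXNIP, a glucose-induced gene in mammals measured in chicken only (-0.33, adjusted p = 0.581), and GFPT1, the entry enzyme of the hexosamine path (0.03, adjusted p = 0.941). The 1 glucose sensing gene of the mean fit was MLX (0.06, adjusted p = 0.673), while the value of TXNIP is from the chicken fit. All adjusted p are by limma over all genes tested.

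**Figure D5:**
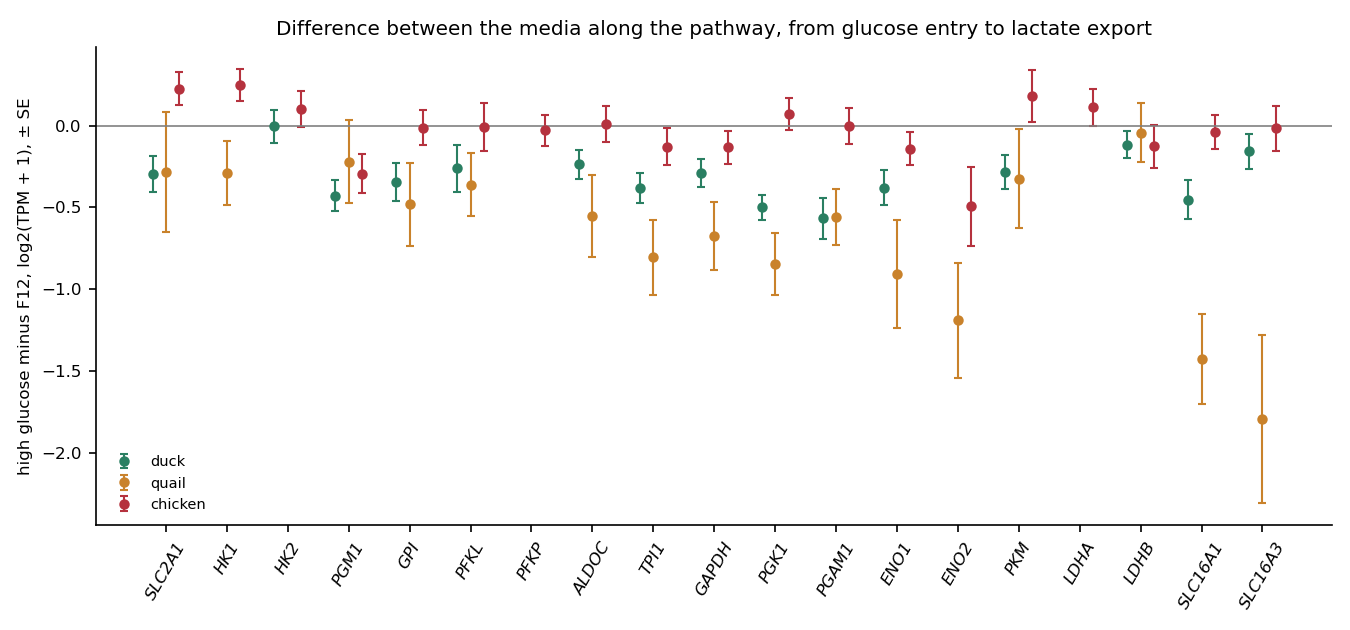
Difference between the media (DMEM high glucose minus DMEM/F12, log2(TPM + 1), with its standard error from limma) in duck, quail and chicken for genes along the path, from the glucose transporter SLC2A1 to the lactate transporters SLC16A1 and SLC16A3. Quail points lie lowest for most genes (-1.43 for SLC16A1, -0.91 for ENO1), and chicken points lie between -0.49 (ENO2) and 0.25 (HK1).

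The 5 genes outside the 10 whose 9 embryo differences were nearest to the median of the 6 shared genes were ALDOC, ST6GALNAC4, LOXL2, TMTC4 and WDR1, with root mean square distances of 0.178 to 0.21 on the log2 scale, where the median of 4228 candidate genes was 0.562. ALDOC, an aldolase isozyme, also belongs to the list of other glycolytic genes, ST6GALNAC4 is a sialyltransferase, LOXL2 a lysyl oxidase that crosslinks collagen, and WDR1 a factor of actin turnover. The median profile ran between -1.08 in a quail embryo and 0.05 in a chicken embryo, and quail embryos 1 and 3 hold its 2 lowest values. The 6 shared genes themselves lay 0.123 (TPI1) to 0.318 (PKM) from this profile. PGK1 (0.23), ENO1 (0.274) and PKM lay farther from it than the 5 genes named.

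Between the sexes 0 of the measured genes were called in any species by limma. This was 0 of 8 in zebra finch (0.262% of all genes), 0 of 7 in duck (4.43%), 0 of 7 in quail (0.156%) and 0 of 10 in chicken (2.8%), where 1, 1, 1 and 0 genes had an unadjusted p under 0.05 (703, 1503, 987 and 1151 of all genes). The gene in zebra finch was PGK1, with 179 TPM in the male culture and 82.1, 66.0 and 58.1 TPM in the female cultures (1.38, SE 0.30, adjusted p = 0.447). By RNA-seq PGK1 had 371 FPKM in the zebra finch library labelled male and 233 FPKM in that labelled female, under the conflicting labels named above. By library number these are cultures 2 and 1, which had 66.0 and 179 TPM by CAGE. TPI1 in quail (0.93, SE 0.39, adjusted p = 0.419) and HK2 in duck (-0.47, SE 0.18, adjusted p = 0.198) were the others. The libraries of both media of an embryo counted as separate samples in duck, quail and chicken, although they deviated together, which makes these p-values too small. With the mean of both media per embryo, an alternative added after seeing the data, 0 of the measured genes were called in duck (0.662% of all genes), quail (0%) and chicken (0.208%), with 0, 1 and 0 at an unadjusted p under 0.05 (660, 709 and 576 of all genes). In each species 1 sex was a single embryo or culture, so sex and embryo cannot be told apart.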

How the data were processed

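CAGE and RNA-seq tables of 4 bird species were used. Per the labels and the study's methods, the authors trimmed reads (Trimmomatic 0.38), mapped CAGE tags (BWA 0.7.10-r789, then HISAT2 2.1.0) to galGal6, Coturnix_japonica_2.1, ZJU1.0 and bTaeGut2.pat.W.v2, called peaks with PromoterPipeline that reached 10 TPM in 1 sample or more and annotated them with ChIPseeker 1.32.0. The deposited CAGE values are in RPM, which the authors call TPM, and listed peaks hold 84.2% to 92% of a library's tags. The authors counted RNA-seq reads per gene (HTSeq 2.0.1), and the deposited tables hold these raw counts and FPKM computed by the authors with edgeR 3.42.2. Raw counts gave depth only, and FPKM, with 1 library per sex and species, were described without a test.

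Each gene was taken at its peak of highest mean TPM. log2(TPM + 1) was fitted with limma 3.58.1 (trend, R 4.3.3), with Benjamini-Hochberg adjustment over all genes tested. Medium differences were fitted with the embryo as a block, for each species (2 residual degrees of freedom before moderation) and for the mean of 3 species over 4774 genes. The sample titles give both cultures of a pair the same number, and the study states 3 embryos in 2 culture conditions. The pairs were taken from these. Libraries of the same embryo deviated together (correlation 0.412 to 0.776, against -0.582 to -0.0618 for other embryos). Deviations were taken from the mean of the libraries in each medium. The negative values for other embryos therefore follow in part from the positive ones and are no separate check. The sexes were compared without a covariate. The study's methods state no block, and the fit without it is given in the closing section. CAGE tags, on which depth rests, were recovered as whole numbers to within 0.05 tags (100% of values in each library). The step of 1 tag could be checked on values of up to 20 tags in quail (117 to 201 a library), where edgeR 4.0.16 was run, but hardly in chicken (8 to 31) and duck (26 to 68). Counting errors cover counting only. Scripts were tested on simulated data with 200 changed genes.

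The 10 genes and the pathway lists were chosen with earlier results of these data known. Named beside the 10 are list genes past adjusted p of 0.05 in the mean response or in 1 species, the most abundant gene of a list without one, and the 5 genes of most like response among those with a mean of at least 10 TPM in each species. The fits of species pairs, of chicken and duck alone and of embryo means for the sexes were added after seeing the data. Sequences were not analysed here.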

Additional observations from a re-analysis of the deposited data

How the results depend on the processing

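Of 1526 values of single genes under another setting, 1468 kept their side of the threshold, 46 lost a call and 12 gained one. No called value changed direction, while 38 uncalled ones did. In the mean response to medium, 3 genes fell, against 0 with no replicate block (adjusted p = 0.136 for GAPDH and 0.27 for both TPI1 and PGK1, with 24 genes of all higher and 5 lower), 0 with chicken and duck only, and 1 to 5 when each embryo was left out. Leaving out embryos gave 0 to 3 genes that fell with medium in quail and 0 to 2 in the difference of the response between quail and chicken, where none did with all embryos. The block changed no other call of these genes. Between species, 2 genes were lower in duck than in chicken, against 1 in DMEM/F12 and 1 to 2 without single libraries. In quail against chicken 4 were lower, against 2 in DMEM/F12, and in zebra finch against duck 1 was higher, against 0 to 1 without single libraries. TPI1 in quail against chicken gained a call with TMM scaling (adjusted p = 0.0377), which moved the median of all genes by -0.07 for that contrast, 0.11 for zebra finch minus chicken, 0.16 for duck minus quail and 0.18 for zebra finch minus quail. The cause of these changes was not tested. Over all genes, the quail medium test called 47 higher and 11 lower, against 39 and 7 by edgeR, 7 and 3 with TMM scaling, 6 and 1 with no replicate block, 0 and 0 without embryo 1, 225 and 150 without embryo 2, and 5 and 0 without embryo 3. The tables of chicken and duck hold too few low values to check the step of 1 tag, and edgeR was not run there. Depth limited no value of these genes to a counting error above 7.27%.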
